A study of Mus musculus with 25 samples.

Results

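The genes described here build, cut and protect the fibrous matrix around fat cells. They are 10 in number, 3 lysyl oxidases (Lox, Loxl1 and Loxl2), 4 tissue inhibitors of metalloproteinases (Timp1, Timp2, Timp3 and Timp4) and 3 matrix metalloproteinases (Mmp2, Mmp3 and Mmp14), taken by their symbols from the 54752 genes counted in each library. All 10 passed the filter used for testing, a mean of at least 1 CPM (a read count scaled to a library of 1e6 counted reads) over the libraries of a fit, so that no member was left out. The data are 25 RNA-seq libraries of whole fat pads from male C57BL/6N mice, 14 of epididymal white adipose tissue (eWAT, a visceral depot) and 11 of inguinal white adipose tissue (iWAT, a subcutaneous depot). In each depot 3 groups were compared, wild type (WT) mice on normal diet (ND, 4 mice in eWAT and 3 in iWAT), WT mice on high-fat diet (HFD, 5 and 5 mice) and Acod1-/- mice on HFD (5 and 3 mice). The Acod1-/- mice (C57BL/6N-Acod1em1(IMPC)J/J) carried the deletion from the germline in every cell type, the WT mice were littermates from crosses of heterozygotes, and Acod1 encodes the enzyme that makes itaconate. The HFD supplied 60% of calories from fat. Both diets started at 5 weeks of age. ND and HFD lasted 16 weeks by the labels, with the exception of the libraries labelled iWAT Acod1-/- HFD replicates 2 and 3. For these the labels give 17 and 18 weeks. Knockout mice on ND were not analysed here, so the effect of the knockout was read on HFD alone.

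Depth ran from 31405063 to 52335623 counted reads, with a median of 42088309. Acod1 itself had at most 9 counts in any library, too few to check the genotype labels. Library numbers in the file headers fall into 2 series, the first with 14 of the HFD-fed libraries and the second with all 7 ND-fed libraries and 1 HFD-fed library of each depot and genotype, so that diet and library series can be told apart only through those 4 libraries. The 10 adipocyte markers summed to between 20430 and 53560 CPM in every library, but other tissue was present as well. The iWAT ND libraries held 575 to 869 CPM of 8 summed B and T cell markers, against 5.23 to 74.1 CPM in iWAT WT HFD and 2.04 to 10.01 CPM in iWAT Acod1-/- HFD. Markers of skeletal muscle reached 7637 CPM in 1 iWAT ND library, and markers of the epididymis ranged from 1.89 to 7690 CPM over the eWAT ND libraries. The knockout groups held such tissue too. Epididymis markers reached 1050 CPM in eWAT Acod1-/- HFD replicate 5, against at most 114 CPM in eWAT WT HFD. Markers of skin and mammary epithelium reached 595 CPM in iWAT Acod1-/- HFD replicate 2, and at most 55.9 CPM in the other iWAT libraries. In bulk tissue, fewer cells of a type and less RNA per cell cannot be told apart.

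Lysyl oxidases are secreted copper enzymes that oxidise lysines of collagen and elastin so that the fibres become crosslinked, which stiffens the matrix. Matrix metalloproteinases are zinc enzymes that cut matrix proteins and shed surface proteins, and each TIMP protein blocks several of them. A fat pad that expands has to remodel its matrix, and the balance of crosslinking, cutting and inhibition is a standing theme in work on obese adipose tissue. Mmp14 is anchored in the cell membrane and activates the secreted Mmp2, a step in which Timp2 acts as a bridge between the 2 enzymes.

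Timp1, Timp3 and Timp4 lie inside genes of the synapsin family, each on the opposite strand, a nesting kept across vertebrates. Timp1 (chromosome X, 20870166 to 20874735, GRCm38) lies within Syn1 with no shared exon base, Timp3 (chromosome 10, 86300372 to 86349506) within Syn3 with 1733 shared exon bases, and Timp4 (chromosome 6, 115241892 to 115252205) within Syn2 with 90 shared exon bases. The sources used here do not say whether counting used strand, so reads on the shared bases cannot be assigned with certainty. The hosts are low beside their guests, with 1278 reads for Syn1 against 8923 for Timp1 over all libraries, 6433 for Syn3 against 517029 for Timp3 and 14064 for Syn2 against 255955 for Timp4. Timp2 spans the small gene Cep295nl, which had 1200 reads against 327402. Of the others, Loxl1 and Mmp3 lie on chromosome 9 (58287738 to 58313186 and 7445822 to 7455975), Loxl2 and Mmp14 on chromosome 14 (69609068 to 69695834 and 54431612 to 54445364) and Mmp2 on chromosome 8 (92827291 to 92853420).

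RefSeq promoter windows (GRCm38.p6, 250 bases before to 50 after the annotated start) were held for 6 of the 10 genes, Timp1, Timp2, Timp3, Timp4, Mmp3 and Mmp14. The windows below are those of the genes with the largest rises on HFD in eWAT, Mmp3 (chr9:7445572-7445871, plus strand) and Timp1 (chrX:20869916-20870215, plus strand), and of the 2 inhibitors that fell there, Timp3 (chr10:86300162-86300461, plus strand) and Timp4 (chr6:115252156-115252455, minus strand). Capitals mark 3 motifs searched on both strands, the AP-1 site TGANTCA, the TATA box TATAAA and the GC box GGGCGG.
Mmp3: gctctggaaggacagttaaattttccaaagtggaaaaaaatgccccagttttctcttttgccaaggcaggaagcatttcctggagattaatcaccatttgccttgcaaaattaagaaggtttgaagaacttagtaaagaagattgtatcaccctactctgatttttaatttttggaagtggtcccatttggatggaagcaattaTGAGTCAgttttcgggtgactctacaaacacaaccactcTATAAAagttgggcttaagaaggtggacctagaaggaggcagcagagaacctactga
Timp1: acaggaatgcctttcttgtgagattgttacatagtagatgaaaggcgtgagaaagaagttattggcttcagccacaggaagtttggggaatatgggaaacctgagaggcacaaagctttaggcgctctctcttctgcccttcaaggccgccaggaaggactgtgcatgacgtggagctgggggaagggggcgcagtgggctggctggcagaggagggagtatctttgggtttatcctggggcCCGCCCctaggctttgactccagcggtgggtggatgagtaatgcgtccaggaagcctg
Timp3: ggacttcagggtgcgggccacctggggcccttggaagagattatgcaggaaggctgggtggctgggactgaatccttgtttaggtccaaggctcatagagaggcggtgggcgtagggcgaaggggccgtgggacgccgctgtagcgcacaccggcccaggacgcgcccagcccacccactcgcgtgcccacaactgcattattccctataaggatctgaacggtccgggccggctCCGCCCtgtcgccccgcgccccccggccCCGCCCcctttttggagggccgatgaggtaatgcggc
Timp4: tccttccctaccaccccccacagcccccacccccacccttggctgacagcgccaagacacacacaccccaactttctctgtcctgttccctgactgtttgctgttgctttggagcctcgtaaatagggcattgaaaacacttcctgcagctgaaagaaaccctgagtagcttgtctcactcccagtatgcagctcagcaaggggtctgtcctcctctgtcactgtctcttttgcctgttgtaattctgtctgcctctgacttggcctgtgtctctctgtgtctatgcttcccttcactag
Of the 6 windows, the one of Mmp3 held the AP-1 letters, found in 7.81% of 32851 promoter windows of this length, and the same window held the TATA box, found in 13.6%. The GC box, found in 35.7% of windows, was in those of Timp1, Timp2, Timp3 and Mmp14. The window of Timp4 held none of the 3. Base composition differed as well, from 40% G and C in Mmp3 to 67% in Timp3 and 68.7% in Timp2, where the median window had 52.7%.

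Per transcript length (RPKM, the CPM value divided by the cDNA length in kilobases), the inhibitors dominated lean eWAT. Timp3 stood at 88.1 ± 20.6 RPKM (SD, n = 4), Timp4 at 76.0 ± 19.6 and Timp2 at 67.3 ± 12.1. Their ranges over the libraries overlapped, although within every library Timp3 was the highest of them. Lox (14.96 ± 4.81), Loxl1 (11.3 ± 3.20) and Mmp2 (10.4 ± 2.03) came next with overlapping ranges, Lox being the highest of them within every library. Mmp14 (5.78 ± 1.09) and Loxl2 (5.49 ± 0.624) followed. Timp1 (1.74 ± 0.802) and Mmp3 (0.688 ± 0.470) were the lowest. On HFD the order in eWAT of WT mice was another one. Timp2 led at 147 ± 43.8 RPKM (n = 5). Timp3 (40.3 ± 14.4), Mmp2 (38.5 ± 17.9), Lox (34.7 ± 5.41), Timp1 (33.7 ± 18.9), Loxl1 (27.9 ± 8.96) and Timp4 (24.98 ± 15.6) had overlapping ranges over the libraries. Timp3 was above Timp4 in each of these libraries. The plot of levels by library shows this reordering.

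**Figure D1:**
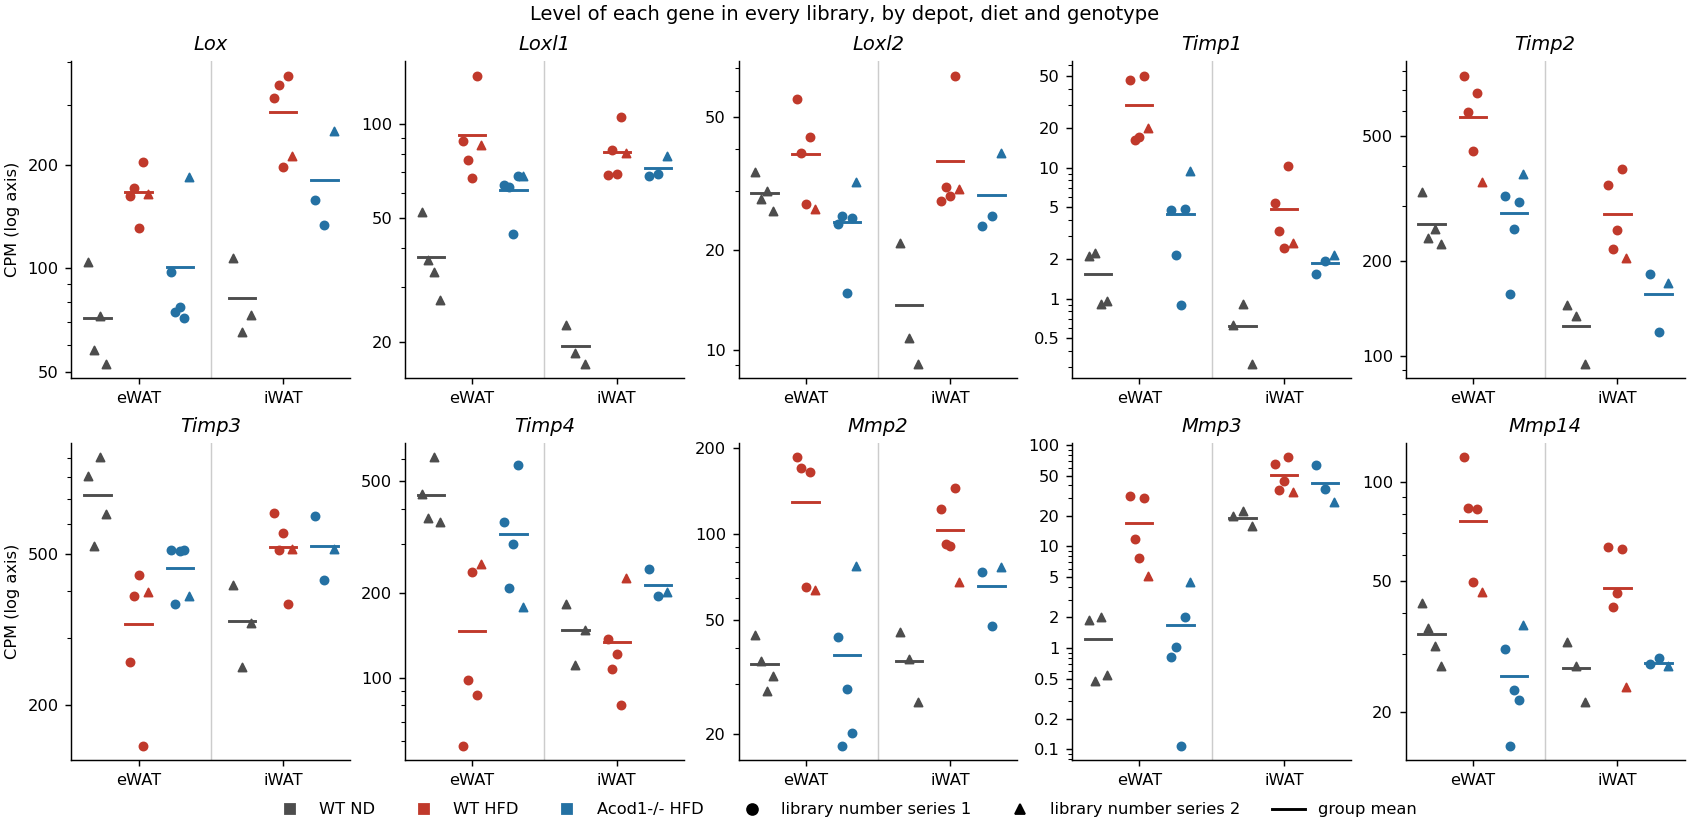
Level of each of the 10 genes in every library, in CPM on a log axis, with eWAT left and iWAT right of the grey line in each panel. Points are libraries (circles and triangles mark the 2 series of library numbers), bars are group means, and colours give WT ND (grey), WT HFD (red) and Acod1-/- HFD (blue). Timp1 in eWAT goes from 0.907 to 2.21 CPM on ND to 16.2 to 50.3 CPM on HFD, and Timp3 and Timp4 go the other way.

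The first comparison asked what HFD does in eWAT of WT mice. HFD changed 9 genes, 7 higher (Lox, Loxl1, Timp1, Timp2, Mmp2, Mmp3 and Mmp14) and 2 lower (Timp3 and Timp4), while Loxl2 did not pass. Of all 14936 genes tested, 24.8% were called higher and 26.9% lower at an adjusted p under 0.1 (edgeR quasi-likelihood test, Benjamini-Hochberg over all genes). The median log2 fold change of the 10 genes was 1.18, beside -0.04 over all genes. In the same comparison 12 of 12 macrophage markers rose, and their summed level went from 584 to 1143 CPM on ND to 2070 to 7638 CPM on HFD; the part of these cells in the changes below was not tested. Likewise 10 of 12 fibroblast markers rose (2045 to 2674 against 3492 to 6581 CPM). In turn 6 of 8 endothelial, 4 of 6 mural cell, 5 of 10 adipocyte, 5 of 6 epithelial and 3 of 6 epididymal markers fell. Of the mural cell markers 1 rose, and of the adipocyte markers 1. The part of all these cells was not tested either.

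Of the crosslinking enzymes Lox and Loxl1 rose. Lox, the founding member, measured 104, 58.1, 72.9 and 52.7 CPM on ND and 163, 171, 131, 204 and 164.5 CPM on HFD, without overlap (log2 fold change 1.21, SE 0.29, adjusted p = 0.00497). Loxl1, the paralog that acts on elastin, measured 52.0, 36.6, 33.4 and 27.2 CPM on ND and 88.1, 76.7, 67.0, 143 and 85.4 CPM on HFD (1.30, SE 0.23, adjusted p = 0.00113). Every HFD library lay above every ND library for both genes. The share of all genes without overlap of libraries was not counted, here or for the other statements of overlap. Loxl2, which acts on the collagen IV of basement membranes, was 29.7 ± 3.37 CPM on ND and 38.7 ± 12.5 CPM on HFD, with overlapping libraries (0.38, 95% interval -0.13 to 0.90, adjusted p = 0.200).

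The inhibitors split. Timp1, the inducible and secreted member, had 2.11, 2.21, 0.907 and 0.953 CPM on ND and 46.1, 16.2, 17.1, 50.3 and 19.9 CPM on HFD, a 19.3-fold rise (log2 fold change 4.27, SE 0.66, adjusted p = 0.000598) with 2 of the 5 HFD libraries well above the other 3. Timp2, abundant in most tissues, went from 331, 237, 253.5 and 227 CPM to 776, 596, 446.5, 683.5 and 357 CPM (1.12, SE 0.26, adjusted p = 0.00462), the lowest HFD library lying just above the highest ND library. The other pair fell. Timp3, which is bound to the matrix and also inhibits ADAM proteases, measured 804, 525, 902 and 640.3 CPM on ND against 259.9, 387, 440.3, 156 and 396.5 CPM on HFD (-1.13, SE 0.26, adjusted p = 0.00428). Timp4, the inhibitor known for its restriction to few tissues including fat, measured 453, 369.8, 609 and 359.7 CPM against 57.6, 98.2, 239, 87.1 and 254 CPM (-1.61, SE 0.43, adjusted p = 0.0103). Neither gene had an HFD library within the ND range. With library series as a term in the fit, Timp4 no longer passed (-1.43, adjusted p = 0.107), whereas the other 8 genes did. That fit called 2609 genes higher and 2530 lower of 14936.

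The proteases rose. Mmp2, the gelatinase that digests denatured collagen and collagen IV, measured 44.2, 35.9, 28.3 and 31.9 CPM on ND and 186, 170, 65.1, 165 and 63.7 CPM on HFD (log2 fold change 1.89, SE 0.45, adjusted p = 0.00538). In HFD, 3 libraries stood together at the top and 2 were just above the ND range. Mmp3, stromelysin 1, which cuts many matrix proteins and activates other metalloproteinases, was rare on ND with 1.90, 0.471, 2.04 and 0.545 CPM and measured 31.2, 11.7, 7.65, 30.1 and 5.09 CPM on HFD, a 13.9-fold rise (3.79, SE 0.91, adjusted p = 0.00538). The counts behind these values were 26 to 106 on ND and 253 to 1321 on HFD. Mmp14, the membrane-bound activator, went from 34.5 ± 6.48 CPM to 76.2 ± 29.8 CPM without overlap (1.14, SE 0.29, adjusted p = 0.00752).

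Counted per length, the summed level of the 4 inhibitors was 233 ± 45 RPKM on ND and 246 ± 33.9 RPKM on HFD, with overlapping ranges, while its make-up differed. Timp1 took 0.779% ± 0.418 of the pool on ND and 13.2% ± 6.00 on HFD, and Timp2 29.2% ± 4.19 and 58.7% ± 10.7. Timp3 took 37.6% ± 2.68 and 17.1% ± 7.61, and Timp4 32.4% ± 3.34 and 10.9% ± 7.88. For each inhibitor the ranges of the 2 diets did not overlap. The summed level of the 3 lysyl oxidases was 31.8 ± 8.47 RPKM on ND and 69.7 ± 15.1 RPKM on HFD, and that of the 3 proteases 16.9 ± 3.18 and 60.9 ± 28.6 RPKM.

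**Figure D2:**
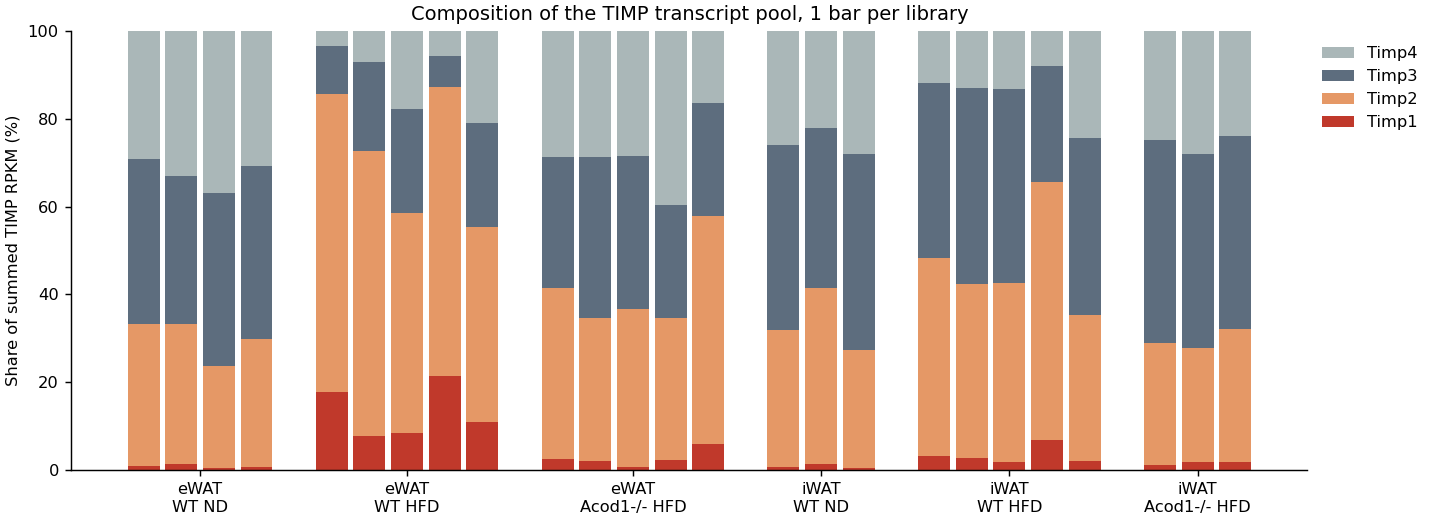
Share of each inhibitor in the summed RPKM of Timp1 to Timp4, 1 bar per library, grouped by depot, diet and genotype. In eWAT of WT mice on HFD, Timp1 and Timp2 make up most of every bar, with Timp1 at 7.74% to 21.3%, while in the other 5 groups Timp1 does not exceed 6.82%.

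The second comparison asked what the loss of Acod1 changes in eWAT on HFD. The knockout changed 9 of the 10 genes, 8 lower (Lox, Loxl1, Loxl2, Timp1, Timp2, Mmp2, Mmp3 and Mmp14) and 1 higher (Timp4), where 10.8% of all genes tested were called lower and 9.13% higher. Only Timp3 did not pass. The median log2 fold change of the 10 genes was -0.87, beside 0.04 over all genes. Since the diet and genotype comparisons share the 5 WT HFD libraries, opposite signs are partly built in. All 12 macrophage markers fell as well (2070 to 7638 CPM in WT, 493 to 2103 CPM in Acod1-/-), and 6 of 12 fibroblast markers fell, while 5 of 10 adipocyte markers rose (20430 to 45370 CPM summed in WT, 36990 to 50490 CPM in Acod1-/-); the part of these cells was not tested.

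The largest falls were those of Mmp3, Timp1 and Mmp2, which also had the largest rises on HFD. The shared WT HFD libraries build this match in partly. Beyond these genes the order differed, since Mmp14 and Timp2 fell more than Lox and Loxl1, which HFD had raised more. Timp1 measured 4.73, 2.15, 0.899, 4.80 and 9.44 CPM in Acod1-/- mice, all below the 16.2 CPM of the lowest WT HFD library (log2 fold change -2.76, SE 0.56, adjusted p = 0.0127). Mmp3 measured 0.822, 1.03, 0.109, 1.998 and 4.46 CPM, again below every WT HFD library (-3.34, SE 0.81, adjusted p = 0.0206). Its lowest library rests on 4 counts. Mmp14 measured 30.9, 15.7, 23.2, 21.6 and 36.8 CPM, without overlap with WT HFD (-1.57, SE 0.27, adjusted p = 0.0110). Mmp2 measured 43.8, 18.2, 28.8, 20.1 and 77.4 CPM, the last of which lay inside the WT HFD range (-1.79, SE 0.41, adjusted p = 0.0174). Timp2 measured 322, 157, 252, 309 and 378 CPM (-1.01, SE 0.24, adjusted p = 0.0200), and here too 1 Acod1-/- library overlapped with WT HFD.

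The lysyl oxidases fell by smaller amounts. Lox measured 97.8, 74.5, 77.2, 71.6 and 184.5 CPM in Acod1-/- eWAT, 4 libraries below every WT HFD library and 1 within their range (log2 fold change -0.72, SE 0.26, adjusted p = 0.0876). Loxl1 measured 63.6, 62.8, 44.2, 68.2 and 68.1 CPM (-0.58, SE 0.21, adjusted p = 0.0881), and without WT HFD replicate 4 its value was -0.37 (adjusted p = 0.224). Loxl2 measured 24.1 ± 6.11 CPM against 38.7 ± 12.5 CPM (-0.68, SE 0.22, adjusted p = 0.0595). At an adjusted p under 0.05 these 3 genes and Timp4 were lost, leaving 5 of the 9, and leaving out 1 library at a time left between 5 and 9. Timp4 measured 359, 209, 300.2, 572 and 179 CPM, 2 of them inside the WT HFD range (1.14, SE 0.41, adjusted p = 0.0859), and Timp3 459 ± 73.4 CPM against 328 ± 117 CPM (0.49, 95% interval -0.06 to 1.03, adjusted p = 0.210). Timp1 made up 2.59% ± 1.90 of the inhibitor pool in Acod1-/- eWAT and Timp4 28.4% ± 8.23.

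The 2 library series gave different pictures of this comparison. Within the first series, with 4 mice per genotype, the same 9 genes were called and the effects were larger. Lox was at -1.07 (adjusted p = 0.00338), Timp4 at 1.57 (adjusted p = 0.0428) and Mmp2 at -2.40 (adjusted p = 0.00343). That fit called 1633 genes higher and 2160 lower of 14672, beside 1364 and 1612 of 14936 with both series. The second series holds 1 library of each genotype and so gives values without a test. There, 4 of the 9 genes differed in the direction of the whole comparison and 5 did not. The Acod1-/- library had 184.5 CPM of Lox where the WT library had 164.5 CPM, 31.9 against 26.5 CPM of Loxl2, 378 against 357 CPM of Timp2, 77.4 against 63.7 CPM of Mmp2 and 179 against 254 CPM of Timp4. Timp1 (9.44 against 19.9 CPM), Mmp14 (36.8 against 46.2 CPM), Mmp3 (4.46 against 5.09 CPM) and Loxl1 (68.1 against 85.4 CPM) were lower in the Acod1-/- library. The summed macrophage markers were alike in the pair, at 2103 CPM in the Acod1-/- library and 2070 CPM in the WT library, the highest and the lowest of their groups.

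**Figure D3:**
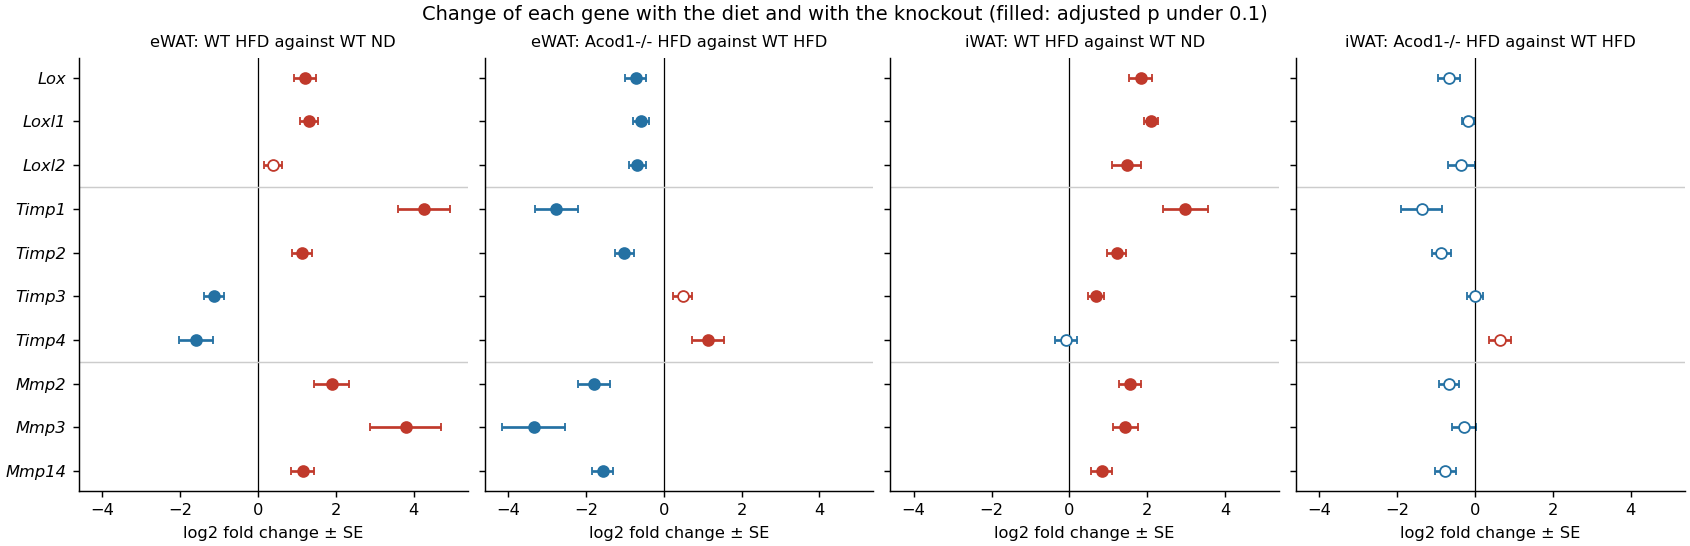
Log2 fold changes (points) with standard errors (bars) of the 10 genes in 4 comparisons, the diet in WT mice and the knockout on HFD, in eWAT and iWAT. Filled points passed an adjusted p under 0.1; red is higher and blue lower. In eWAT 9 genes passed for the diet and 9 for the knockout, and in iWAT 9 and 0.

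Compared directly with ND-fed WT mice, eWAT of HFD-fed Acod1-/- mice differed in 3 of the 10 genes, 2 higher (13.5% of all genes) and 1 lower (13% of all genes). This count is near the share over all genes, of which 26.5% were called in either direction. Loxl1 was higher by 0.72 on the log2 scale (SE 0.23, adjusted p = 0.0475) and Timp1 by 1.51 (SE 0.59, adjusted p = 0.0918), and Timp3 was lower by -0.65 (SE 0.26, adjusted p = 0.0989). With series as a term none of the 3 passed, at similar or larger values (Loxl1 0.74, Timp1 1.94 and Timp3 -0.61). That fit called 607 genes higher and 441 lower of 14936. Without Acod1-/- HFD replicate 5, Timp1 was at 1.003 (adjusted p = 0.210). Among the fits that leave out 1 library, Timp1 lost its call in 7, Timp3 in 8 and Loxl1 in 2. For the proteases the intervals were wide, with Mmp2 at 0.10 (95% interval -0.84 to 1.05), Mmp3 at 0.45 (-1.32 to 2.23) and Mmp14 at -0.42 (-1.05 to 0.20).

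In iWAT of WT mice, 9 of the 10 genes rose on HFD and none fell, where 25.9% of 14801 genes tested were called higher. The median log2 fold change was 1.46, beside 0.00 over all genes. Beside them 8 of 12 macrophage markers (563 to 771 CPM on ND, 641 to 1625 CPM on HFD), 10 of 12 fibroblast markers and 7 of 8 endothelial markers rose. Of 10 adipocyte markers 4 rose and 1 fell, with sums of 30410 to 37550 CPM on ND and 42270 to 53560 CPM on HFD. All 8 B and T cell markers and all 6 muscle markers fell, where 24.2% of all genes were called lower. The part of these cells in the changes was not tested.

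All 3 lysyl oxidases rose. Loxl1 measured 22.7, 18.4 and 16.95 CPM on ND and 68.4, 82.2, 68.9, 105 and 80.6 CPM on HFD (log2 fold change 2.10, SE 0.17, adjusted p = 5.59e-05). Lox measured 107.5, 65.4 and 73.2 CPM against 314, 342, 197.5, 365 and 212 CPM (1.83, SE 0.29, adjusted p = 0.00081). Loxl2 rose here, from 20.97, 10.9 and 9.08 CPM to 28.0, 30.8, 28.95, 66.6 and 30.5 CPM (1.47, SE 0.37, adjusted p = 0.00924). In none of the 3 did the diets overlap. Of all genes, 50.1% were called in either direction here, and the share without overlap was not counted.

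Among the inhibitors, Timp1 rose 7.87-fold from a low level, 0.632, 0.914 and 0.318 CPM on ND against 5.35, 3.26, 2.45, 10.4 and 2.64 CPM on HFD (log2 fold change 2.98, SE 0.58, adjusted p = 0.00226). The ND values rest on 14 to 47 counts. Timp2 went from 125 ± 26.8 to 283 ± 82.7 CPM (1.21, SE 0.25, adjusted p = 0.00325). Timp3, which fell in eWAT, rose from 414, 252 and 330.0 CPM to 640.5, 513, 569, 369.5 and 515.5 CPM, with 1 HFD library inside the ND range (0.68, SE 0.21, adjusted p = 0.0235). Timp4 was 148 ± 35.8 CPM on ND and 135 ± 55.2 CPM on HFD (-0.10, 95% interval -0.76 to 0.56, adjusted p = 0.805).

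All 3 proteases rose. Mmp2 went from 36.0 ± 9.85 to 104 ± 30.0 CPM (log2 fold change 1.55, SE 0.27, adjusted p = 0.00134) and Mmp14 from 27.2 ± 5.61 to 47.5 ± 16.5 CPM (0.83, SE 0.27, adjusted p = 0.0293), the latter with overlap. Mmp3 measured 19.8, 22.2 and 15.8 CPM on ND and 64.9, 36.2, 43.8, 75.8 and 34.7 CPM on HFD (1.44, SE 0.32, adjusted p = 0.00473). With series as a term Mmp14 did not pass (0.34, adjusted p = 0.461) and Mmp3 was smaller (0.85, adjusted p = 0.0817), whereas the 3 lysyl oxidases moved little (Loxl1 2.21, Lox 1.98, Loxl2 1.65).

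No gene of the 10 was called between HFD-fed Acod1-/- and WT mice in iWAT, where 0% of all genes passed at an adjusted p under 0.1 with edgeR. An unadjusted p under 0.05 was found for 6 of the 10, and DESeq2 called 2 of the 10, with 440 genes higher and 632 lower over all. Timp2 measured 182, 119 and 171 CPM in Acod1-/- mice, all below the 204 CPM of the lowest WT HFD library (log2 fold change -0.86, SE 0.25, adjusted p = 0.154; DESeq2 -0.84, adjusted p = 0.0236). Timp1 measured 1.54, 1.93 and 2.16 CPM, also below the WT HFD range (-1.38, SE 0.53, adjusted p = 0.230). Mmp14 measured 27.9, 29.2 and 27.6 CPM against 63.6, 41.7, 45.8, 62.8 and 23.8 CPM (-0.77, SE 0.27, adjusted p = 0.198; DESeq2 -0.74, adjusted p = 0.0974). Lox (-0.67, adjusted p = 0.256), Mmp2 (-0.67, adjusted p = 0.236) and Timp4 (0.64, adjusted p = 0.287) had the same signs as in eWAT. With the HFD libraries of the first series alone, 5 genes passed (Lox, Timp2, Timp4, Mmp2 and Mmp14), in a fit with 2 Acod1-/- libraries that called 1026 genes higher and 1131 lower over all. In the pair of the second series, the Acod1-/- library had more Lox (250.8 against 212 CPM), Loxl2 (39.01 against 30.5 CPM), Mmp2 (76.6 against 68.0 CPM) and Mmp14 (27.6 against 23.8 CPM) and less Timp4 (202.5 against 226 CPM) than the WT library, against the sign of the whole comparison. Timp1 (2.16 against 2.64 CPM), Timp2 (170.8 against 204 CPM), Mmp3 (27.7 against 34.7 CPM) and Loxl1 (78.9 against 80.6 CPM) were lower in the Acod1-/- library, as in the whole comparison, and Timp3 was 517 against 515.5 CPM. The macrophage markers spanned 485 to 573 CPM in Acod1-/- iWAT and 641 to 1625 CPM in WT iWAT on HFD, and their part was not tested. The effect of the knockout was not called different between the depots for any of the 10 genes, where 0.00665% of all genes passed. An unadjusted p under 0.05 was found for 2, Mmp3 (difference of log2 fold changes -3.06, SE 0.89, adjusted p = 0.303) and Mmp2 (-1.13, SE 0.54, adjusted p = 0.486). By p they ranked 106 and 1466 among 15034 genes, so at least 1466 genes met that threshold. A fit that paired same-numbered libraries of the 2 depots called 4 (Timp1, Mmp2, Mmp3 and Mmp14). It called 156 genes higher and 328 lower of 15034.

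Against ND-fed WT mice, iWAT of HFD-fed Acod1-/- mice was higher in 7 of the 10 genes, where 18.5% of all genes were called higher. They were Loxl1 (1.91, adjusted p = 9.27e-05), Lox (1.16, adjusted p = 0.0178), Loxl2 (1.12, adjusted p = 0.0597), Timp1 (1.6, adjusted p = 0.0658), Timp3 (0.67, adjusted p = 0.0519), Mmp2 (0.88, adjusted p = 0.0439) and Mmp3 (1.15, adjusted p = 0.0304), each a log2 fold change. Timp2 (0.35, 95% interval -0.27 to 0.97), Timp4 (0.54, -0.20 to 1.28) and Mmp14 (0.06, -0.62 to 0.74) did not pass. With series as a term 4 genes passed, in a fit that called 2234 genes higher and 1865 lower of 14801.

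The diet acted differently in the 2 depots for 5 of the 10 genes, 4 with the lower effect in eWAT (15% of all genes) and 1 with the higher (14% of all genes). In the same test all 8 endothelial, 5 of 6 mural and 5 of 10 adipocyte markers had the lower effect in eWAT, and all 8 B and T cell, 4 of 6 muscle and 4 of 12 macrophage markers the higher; their part was not tested. Timp3 differed most firmly, falling in eWAT and rising in iWAT (difference of log2 fold changes -1.78, SE 0.36, adjusted p = 0.0014). The others were Timp4 (-1.47, SE 0.58, adjusted p = 0.0737), Loxl1 (-0.76, SE 0.30, adjusted p = 0.0695), Loxl2 (-1.06, SE 0.43, adjusted p = 0.0860) and, in the opposite direction, Mmp3 (2.39, SE 0.92, adjusted p = 0.0671). At an adjusted p under 0.05, and with no filter on low counts, Timp3 was the one left, and it was also called whichever library was left out, whereas the count over the 10 genes then ran from 1 (without iWAT ND replicate 2) to 5. No difference was called for Timp1 (1.33, 95% interval -0.40 to 3.05), Timp2 (-0.06, -0.84 to 0.72), Mmp2 (0.36, -0.80 to 1.53), Mmp14 (0.34, -0.53 to 1.21) or Lox (-0.59, -1.45 to 0.27).

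**Figure D4:**
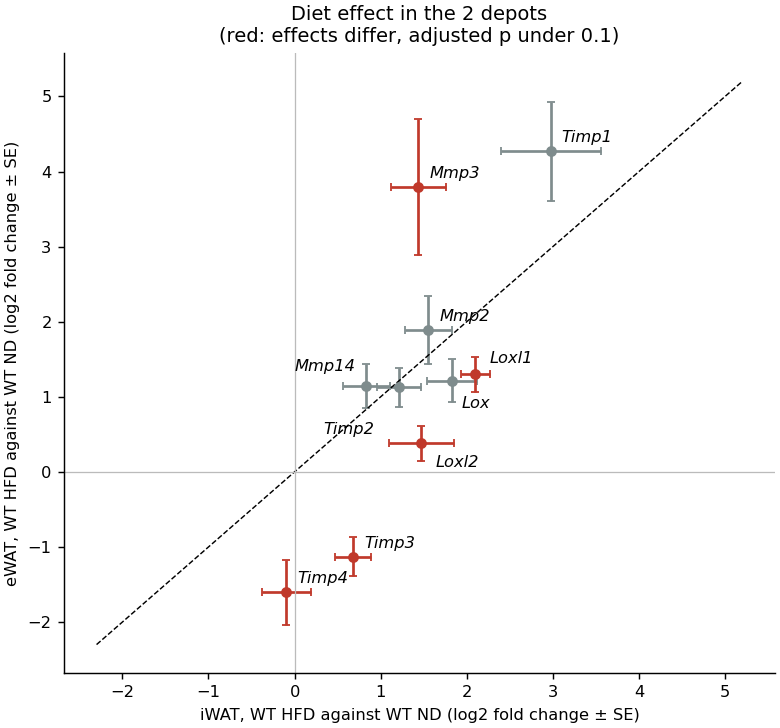
Log2 fold change of each gene between WT HFD and WT ND in iWAT (horizontal) and eWAT (vertical), with standard errors. The dashed line marks equal effects, and red genes differ between the depots at an adjusted p under 0.1. Timp3 lies at 0.68 in iWAT and -1.13 in eWAT, and Mmp3 at 1.44 and 3.79.

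The depots themselves differed in 6 of the 10 genes on ND, 5 higher in eWAT (17.5% of 15034 genes) and 1 lower (14.2%). All 6 mesothelial, 4 of 5 tested epididymal, 4 of 6 mural, 4 of 12 fibroblast, 3 of 8 endothelial and 3 of 12 macrophage markers were higher in eWAT too. Lower there were 1 mural, 1 fibroblast, all 8 B and T cell and all 6 muscle markers. The part of these cells was not tested. Timp4 (log2 difference eWAT minus iWAT 1.6, adjusted p = 0.0147), Loxl2 (1.12, adjusted p = 0.0197), Timp3 (1.11, adjusted p = 0.00634), Timp2 (1.07, adjusted p = 0.0109) and Loxl1 (0.95, adjusted p = 0.00513) were higher in eWAT. Mmp3 was the exception, 15.6-fold lower in eWAT (-3.97, SE 0.76, adjusted p = 0.000661), with 0.471 to 2.04 CPM against 15.8 to 22.2 CPM. On HFD 3 genes were higher in eWAT of WT mice (10.8% of all genes) and 3 lower (7.75%), beside 12 of 12 macrophage markers higher and all 8 endothelial, 4 of 6 mural and 4 of 10 adipocyte markers lower, whose part was not tested. Timp1 (2.64, adjusted p = 0.00307), Timp2 (1.02, adjusted p = 0.00793) and Mmp14 (0.68, adjusted p = 0.0972) were higher, and Lox (-0.78, adjusted p = 0.0534), Timp3 (-0.67, adjusted p = 0.0552) and Mmp3 (-1.58, adjusted p = 0.0801) were lower. At an adjusted p under 0.05 Timp1 and Timp2 alone were left, and of the 10 fits that leave out 1 library Lox lost its call in 4, Timp3 in 4, Mmp14 in 6 and Mmp3 in 7. In Acod1-/- mice Mmp3 alone was called, lower in eWAT (1.8% of all genes) by -4.63 (SE 0.71, adjusted p = 0.000703), with 0.109 to 4.46 CPM against 27.7 to 62.9 CPM. Mmp3 was thus lower in eWAT than in iWAT under each of the 3 conditions, with no overlap of libraries in any.

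Within groups, the genes of the Mmp2 activation step varied together. After each group's mean log2 CPM was subtracted, Mmp2 and Mmp14 correlated over the 25 libraries with a Pearson r of 0.87 (Spearman rho 0.90), Timp2 and Mmp14 with 0.86 (0.84) and Timp2 and Mmp2 with 0.84 (0.84). Timp3 and Timp4 went together (0.67, rho 0.79), and Timp4 opposed Mmp2 (-0.65, rho -0.58) and Mmp14 (-0.61, rho -0.46). These values are descriptions over libraries that share depth, series and cell composition. On the same scale the summed macrophage markers correlated with Mmp14 (0.89), Timp2 (0.89), Mmp2 (0.88), Mmp3 (0.77), Timp1 (0.75), Lox (0.65), Loxl2 (0.61) and Loxl1 (0.45), and inversely with Timp4 (-0.59) and Timp3 (-0.28). Summed fibroblast markers gave 0.89 for Mmp2, 0.87 for Timp2, 0.82 for Mmp14, 0.81 for Loxl2, 0.77 for Timp1, 0.74 for Lox, 0.69 for Mmp3, 0.61 for Loxl1, -0.36 for Timp3 and -0.61 for Timp4. With endothelial markers Timp3 had 0.61.

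**Figure D5:**
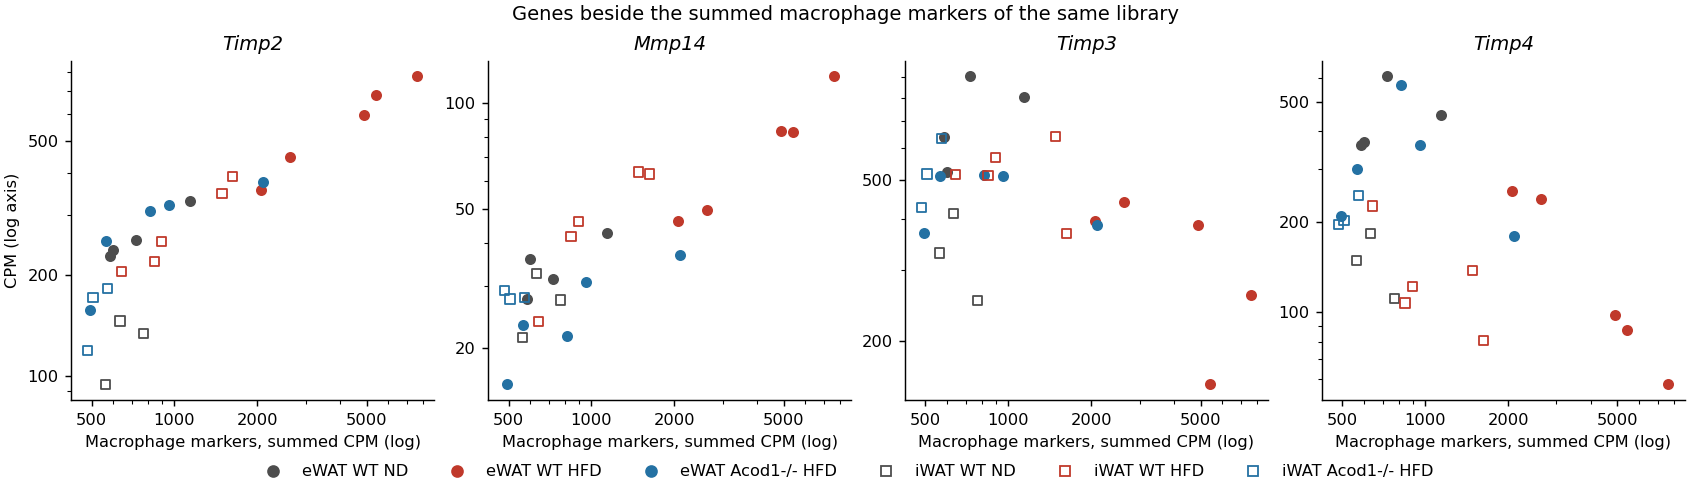
CPM of Timp2, Mmp14, Timp3 and Timp4 (vertical, log axis) beside the summed CPM of 12 macrophage markers (horizontal, log axis) in the same library, 1 point per library, filled for eWAT and open for iWAT. The WT HFD libraries of eWAT reach 7638 CPM of the markers, in the library where Timp2 and Mmp14 are highest and Timp4 is lowest.

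The genes hosting the inhibitors were read beside them. Syn1 rose on HFD in eWAT (log2 fold change 1.95, SE 0.49, adjusted p = 0.00713) and fell with the knockout (-2.02, SE 0.46, adjusted p = 0.0160), as did Timp1, although the 2 genes share no exon base. Syn1 had 13 to 68 counts on ND and 106 to 176 on HFD. Syn2 fell on HFD in eWAT (-1.48, SE 0.30, adjusted p = 0.00227), as did Timp4. Syn3 (-0.70, SE 0.35, adjusted p = 0.122) and Cep295nl (0.83, SE 0.93, adjusted p = 0.489) did not pass.

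The wider families were followed through lists of related genes, whose counts stand against 24.8% of all genes higher and 26.9% lower for the diet in eWAT, 9.13% and 10.8% for the knockout there, and 25.9% higher for the diet in iWAT. Of the other lysyl oxidases, Loxl3 rose on HFD in eWAT (log2 fold change 0.76, adjusted p = 0.0220) and fell with the knockout (-0.92, adjusted p = 0.0227), and Loxl4 (0.61, adjusted p = 0.319) did not pass in eWAT. Of 20 other matrix metalloproteinases 11 were tested in eWAT, where 6 rose and 4 fell on HFD (median 0.82) and 1 rose and 6 fell with the knockout (median -0.54). Mmp19 rose from 63.3 ± 8.13 to 115 ± 18.4 CPM (0.86, adjusted p = 0.00161). Mmp28 fell from 47.9 ± 1.84 to 25.6 ± 6.83 CPM (-0.90, adjusted p = 0.00166) and was the one that rose with the knockout (0.55, adjusted p = 0.0444). Mmp9, the gelatinase of leukocytes, fell from 7.80 ± 4.76 to 1.31 ± 0.751 CPM (-2.57, adjusted p = 0.00188). In iWAT 6 of 10 tested rose on HFD and 2 fell.

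ADAM and ADAMTS proteases, the relatives that Timp3 also inhibits, were split, with 7 of 16 higher and 5 lower on HFD in eWAT (median 0.02), the lower ones near the share over all genes, and 9 higher and 1 lower in iWAT (median 0.67). The 3 with the smallest adjusted p in eWAT all fell there and rose in iWAT. Adamts9, a versican-cleaving protease, changed by -1.15 (adjusted p = 0.00043) in eWAT and 0.67 (adjusted p = 0.0132) in iWAT, Adam15 by -0.68 (adjusted p = 0.000857) and 0.73 (adjusted p = 0.000713), and Adamts1 by -0.92 (adjusted p = 0.00186) and 1.20 (adjusted p = 0.0233). With the knockout 1 of the 16 rose and 5 fell in eWAT (median -0.43), and none was called in iWAT.

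Plasminogen activation and other regulators of the proteases were higher in 5 of 10 tested genes and lower in 1 on HFD in eWAT, and higher in 8 of 10 in iWAT. Plau, the urokinase that activates plasminogen, rose in eWAT from 79.5 ± 24.3 to 248 ± 98.1 CPM (1.64, adjusted p = 0.00119) and fell with the knockout (-1.57, adjusted p = 0.0110). Plg (plasminogen) and Serpinf2 (its plasma inhibitor), both known as products of the liver, were close to 0 on ND and present on HFD in both depots. Plg had 0 to 13 counts in eWAT on ND and 63 to 688 on HFD, and in iWAT 0 counts in every ND library and 109 to 1104 on HFD. Serpinf2 had 2 to 19 and 28 to 254 counts in eWAT.

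Enzymes and partners of collagen and elastin processing rose in 10 of 17 tested genes and fell in 2 on HFD in eWAT (median 0.46), and rose in 14 and fell in 1 in iWAT (median 1.20). Efemp2, the fibulin that binds Lox and tropoelastin, rose in eWAT (1.08, adjusted p = 0.000366) and fell with the knockout (-0.87, adjusted p = 0.0110). Pcolce, an enhancer of procollagen cleavage, did likewise (1.58, adjusted p = 0.000935; -1.33, adjusted p = 0.0110), and its paralog Pcolce2 rose by 2.61 (adjusted p = 0.00156) and had -0.70 with the knockout (adjusted p = 0.305). In all, 4 of the 17 fell with the knockout in eWAT and none rose.

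Of 14 collagens, elastin and other matrix proteins on which these enzymes act, 10 rose and 1 fell on HFD in eWAT (median 0.91), and 13 rose in iWAT (median 1.66). Col1a1 rose from 216 ± 50.6 to 675 ± 243 CPM in eWAT (1.65, adjusted p = 0.00264) and Col3a1 from 679.5 ± 89.8 to 1829 ± 692 CPM (1.43, adjusted p = 0.00437). Both fell with the knockout (-1.39, adjusted p = 0.0168; -1.15, adjusted p = 0.0286). Eln, the elastin that lysyl oxidases crosslink, was the one that fell on HFD, from 171 ± 60.5 to 56.8 ± 10.8 CPM (-1.59, adjusted p = 0.00122), while Lox and Loxl1 rose in the same libraries. With the knockout 6 of the 14 fell in eWAT, and none was called in iWAT.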

How the data were processed

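RNA was measured in snap-frozen fat pads by directional poly-A RNA-seq. According to the study's methods, the authors trimmed reads with cutadapt, dropped contaminants, aligned with STAR to GRCm38 and tested with DESeq2 at an FDR under 0.1. The authors deposited, per library, read counts per gene, the cDNA length and 2 columns of FPKM values. The counting program and its strand setting are not given in the sources used here. The deposited FPKM columns could be recomputed from counts and cDNA lengths (largest difference 0.0005) and were not tested. GENCODE vM21 gave 54723 of the 54752 gene IDs a symbol.

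The tests ran in edgeR 4.0.16 (TMM, quasi-likelihood; R 4.3.3, limma 3.58.1), 1 fit per depot, with DESeq2 1.42.0 as an alternative. Other steps used Python 3.11.15 with pandas 2.3.3, numpy 2.4.6 and matplotlib 3.10.9. The filter kept genes whose mean reached 1 CPM, and Benjamini-Hochberg adjusted p-values over all of them were called under 0.1. Depot comparisons used 1 fit of all libraries. CPM and RPKM values are on the TMM scale of that fit, with a prior count of 2 on the log2 scale. Standard errors are log2 fold changes divided by the root of the F statistic. Fits were tested on simulated data. No pair of libraries of a group was a copy (lowest chi-square per degree of freedom 33.7). Libraries of a group were taken as separate mice; p-values measure the spread between them. The comparisons within a depot share groups.

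The members and gene lists were chosen with earlier results of these data known. Named besides the members are, per list, at most the 3 genes with the smallest adjusted p for the diet in eWAT, genes overlapping members, and the 3 genes most like Lox, Timp1, Timp4 and Mmp3 by correlation among genes of sufficient level (mean of 5 CPM or more). Alternatives were other normalization, filters and thresholds, series or replicate number as terms, fewer groups, leaving out each library, and, chosen after seeing the data, only libraries labelled 16 weeks. The last of these leaves 1 iWAT Acod1-/- library. The lowest count behind a member was 4, for Mmp3.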

Additional observations from a re-analysis of the deposited data

Results flagged for a closer look

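A closer look is due to 5 differences between depots, because the effect of HFD differed between eWAT and iWAT by the interaction term. They are Timp3 (-1.78), Timp4 (-1.47), Loxl1 (-0.76), Loxl2 (-1.06) and Mmp3 (2.39), given as the log2 fold change in eWAT minus that in iWAT, with the tests in the report.

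By Dixon's criterion 4 libraries stood apart from the others of their group, among 40 combinations of gene and group, where chance gives about 2. Lox was 184.5 CPM in eWAT Acod1-/- HFD replicate 5, with the next library at 97.8 CPM. Loxl1 was 143 CPM in eWAT WT HFD replicate 4 (next 88.1 CPM) and 44.2 CPM in eWAT Acod1-/- HFD replicate 3 (next 62.8 CPM). Loxl2 was 66.6 CPM in iWAT WT HFD replicate 4, with the next at 30.8 CPM.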

How the results depend on the processing

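Of 2031 values of single genes under the alternatives, 1787 kept direction and side of the threshold, 163 lost and 30 gained the call, and 51 changed sign, all of the last for values that were not called. The 9 genes called for the diet in eWAT stayed 9 when any library was left out, and iWAT kept 8 to 9. Replicate numbers were not taken to pair the samples. The reason was the correlation of same-numbered libraries across depots, which ran from -0.09 to 0.49 and was over 0.1 in 5 of 11 pairs. The same number was still the best match in 7 of the 11, among the 3 to 5 iWAT libraries of the group. This is a hint of pairing from the data alone, while the main depot tests took the libraries of the 2 depots as independent. The fit with a block is therefore an alternative. In the fit of both depots the block paired same-numbered libraries of the same group. Within a depot it joined same-numbered libraries of different groups, which are different mice, and the hint does not bear on that. Under the block 1 gene was called between knockout HFD and ND in eWAT, where 1340 genes were higher and 1322 lower of 14936. Between depots in knockout mice 4 were called (235 genes higher and 154 lower of 15034). For the depot by genotype difference 4 were called as well (Timp1, Mmp2, Mmp3 and Mmp14). There 156 genes were higher and 328 lower over all, beside 0 and 1 in the main fit. The block turned 4 uncalled values, Mmp2 to -0.091 and Mmp3 to -0.085 (knockout HFD against ND, eWAT), Mmp2 to 0.020 (depots on ND) and Timp4 to -0.021 (depots on HFD). In each case the cause was not tested.

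An adjusted p under 0.05 is stricter by construction. For genotype in eWAT it called 5 of the members (668 genes higher and 1049 lower of all 14936). For knockout HFD against ND it called 1 in eWAT (1242 and 1116) and 4 in iWAT (1999 and 1844 of 14801). Between depots on HFD it called 2 (1193 and 718 of 15034), and for depot by diet 1 (1637 and 1598). With no filter on low counts, more genes share the adjustment. The count was then 1 for knockout HFD against ND in eWAT (1305 genes higher and 1370 lower of 34256). It was 3 between depots on HFD (1259 and 704 of 36252) and 1 for depot by diet (1894 and 1845). With 1 CPM required in every library, Timp1 was tested in no fit and Mmp3 in iWAT alone. The members called were then 7 for diet in eWAT (3073 genes higher and 3290 lower of 12142). Between depots in knockout mice they were 0 (122 and 126 of 11810). With series as a term, 0 were called for knockout HFD against ND in eWAT (607 genes higher and 441 lower of 14936). In iWAT 4 were called (2234 and 1865 of 14801). DESeq2 called 2 for genotype in iWAT (440 genes higher and 632 lower of 14583) and 3 between depots in knockout mice (530 and 362 of 14858). Within the first series, 5 were called for genotype in iWAT (1026 genes higher and 1131 lower of 14429). For depot by genotype 1 was called, Mmp3 (137 and 364 of 14678). The cause was not tested.

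Leaving out 1 library at a time gave 5 to 9 called genes for genotype in eWAT. For knockout HFD against ND in eWAT it gave 0 to 2. The 0 came without ND replicate 3 (1589 genes higher and 1520 lower of 14965) or 4 (1369 and 1393 of 14927). In iWAT it gave 3 to 6, with 3 without ND replicate 3 (2504 and 2205 of 14774). For genotype in iWAT it gave 0 to 2. The 2 came without WT HFD replicate 5 (72 genes higher and 138 lower of 14831) or Acod1-/- HFD replicate 3 (1401 and 1263 of 14851). Between depots it gave 3 to 5 on HFD (6 with all libraries). In knockout mice it gave 1 to 3, with 3 without eWAT Acod1-/- HFD replicate 5 (267 and 271 of 15042). For depot by diet it gave 1 to 5, with 1 without iWAT ND replicate 2 (1549 and 1414 of 14988). For depot by genotype it gave 0 to 1. The 5 for genotype in eWAT came without WT HFD replicate 1 or 4 or Acod1-/- HFD replicate 1, 3 or 4. Lox, Loxl1, Loxl2 and Timp4 were the genes lost. Over all genes those fits called 703 to 934 higher and 1006 to 1211 lower.

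Uncalled values that changed sign when a library was left out ranged as follows. For knockout HFD against ND in eWAT, Timp2 ran from -0.022 to 0.27, Mmp2 from -0.35 to 0.28 and Mmp3 from -0.31 to 0.80. Timp4 for diet in iWAT ran from -0.37 to 0.072 and was 0.32 with series as a term. Timp3 for genotype in iWAT ran from -0.13 to 0.14. It was 0.016 with DESeq2 size factors, 0.012 with no filter, 0.013 with 1 CPM in every library and 0.016 with DESeq2. With only the groups compared it was 0.017, and in the first series 0.023. In libraries labelled 16 weeks, which hold 1 iWAT Acod1-/- library, it was 0.27. Mmp14 for knockout HFD against ND in iWAT ran from -0.084 to 0.20 and was -0.29 with series as a term. Between depots on ND, Lox ran from -0.42 to 0.051 and Mmp2 from -0.23 to 0.16. On HFD, Loxl1 ran from -0.0093 to 0.31, Loxl2 from -0.11 to 0.41 and Timp4 from -0.15 to 0.39. In knockout mice Mmp14 ran from -0.31 to 0.0051. Timp2 for depot by diet ran from -0.19 to 0.11, and Lox for depot by genotype from -0.42 to 0.23. With only libraries labelled 16 weeks, an alternative chosen after seeing the data, Mmp3 for genotype in iWAT was 0.29. Loxl2 between depots in knockout mice was 0.046 and Lox for depot by genotype 0.12. These fits had 1 iWAT Acod1-/- library, so an effect of diet length cannot be told from that library. The cause was not tested.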

Other observations

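The genes whose group-centred log2 CPM was most like 4 of the members over the 25 libraries, among 11417 genes, are given as a description, with Pearson's r and Spearman's rho. For Lox they were Fbln2 (0.89, rho 0.84), which encodes a fibulin of the matrix, Maoa (0.86, 0.82) and Sel1l (0.86, 0.84). For Timp1 they were Ncf4 (0.88, 0.83), a subunit of the phagocyte oxidase, Ctsh (0.86, 0.78) and Bst1 (0.84, 0.80). For Mmp3 they were Cd44 (0.90, 0.88), the hyaluronan receptor, Emp3 (0.86, 0.83) and Nfam1 (0.86, 0.77). For Timp4 they were Atp6v0e2 (0.85, 0.82), Tmem43 (0.83, 0.84) and 2700046G09Rik (0.82, 0.72).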
